A study of Mus musculus with 12 samples.

Results

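The 38 genes described here encode plasma proteins of blood coagulation, fibrinolysis and complement that the liver makes, with a few of their inhibitors and 1 receptor. They were chosen by name, through probe sets whose platform annotation lists 1 gene, and with earlier results of these data known. Of the 38, 36 had a probe set of their own (49 probe sets in all), out of 18193 genes and 45101 probe sets on the array. Complement C3 and carboxypeptidase B2 (Cpb2) had no probe set annotated to that gene alone and were not analysed here.

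RNA was measured in livers of 12 male C57Bl/6J mice, aged 9 weeks, with 1 Affymetrix array per mouse, in 4 groups of 3. CKO mice, Albumin-Cre:Keap1(flox/-), lack the Nrf2 repressor Keap1 in hepatocytes, the cells in which the Albumin promoter drives Cre. Their controls, labelled wild type and called WT here, were Alb-Cre:Keap1(flox/+). They carry the same Cre, which may also delete their floxed allele, and the null allele of CKO mice is present outside hepatocytes as well. Mice of each genotype received either CDDO-Im, a synthetic triterpenoid that activates Nrf2, at 30 umol/kg by gavage, or only its vehicle of DMSO, Cremophor-EL and PBS. Livers were taken 6 h later. The design asks how Keap1 loss and the compound each alter liver transcripts, and whether the compound still acts where Keap1 is deleted. Levels are GCRMA log2 signals, on which a difference of 1 is a doubling, and levels of different genes cannot be set against each other because their probes differ.

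Hepatocytes secrete most circulating clotting factors and complement proteins. In coagulation, a chain of serine proteases ends in thrombin, which turns fibrinogen into fibrin, while antithrombin and the protein C system restrain it and plasmin dissolves the clot. In complement, the classical, lectin and alternative pathways meet at C3, and the terminal components then assemble into the membrane attack complex, a pore in the target membrane. Many of these genes respond to inflammation as part of the acute phase response and depend on the liver factors HNF1, HNF4 and C/EBP.

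The labels were checked on Keap1 and on the Nrf2 target Nqo1, a quinone reductase. Keap1 averaged 6.34 ± 0.10 in CKO livers against 7.91 ± 0.16 in WT livers after CDDO-Im, and 6.39 ± 0.21 in CKO livers against 7.07 ± 0.46 in WT livers after vehicle (SD, n = 3 each). The first difference passed the limma test (-1.57, adjusted p = 0.00553) and the second missed it (-0.68, adjusted p = 0.0712), and the sources used here do not say whether its probes lie in the deleted part. Nqo1 rose in CKO livers after vehicle by 4.86 and in WT livers after CDDO-Im by 3.45 on the log2 scale (limma adjusted p = 4.55e-05 and 0.000934). Hepatocyte markers were high on every array, with a mean over 9 of them of 15.66 to 15.78. Replicate arrays correlated at 0.996 or more. A pair of livers of the CKO vehicle group stood apart in other genes. Replicate 3 had the highest acute phase signal, a mean of 13.34 over 21 genes against 11.57 to 12.67 on the other 11 arrays, and replicate 4 had the lowest mean of 8 male-biased genes, 10.82 against 11.44 to 13.12 elsewhere.

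Among the 38 genes, the ones that changed with Keap1 deletion fell, and they lie in both complement and coagulation. After vehicle, C6, plasma kallikrein (Klkb1) and C1s1 were lower in CKO than in WT livers. Averaged over both treatments, the terminal components C8a and C8b and prothrombin (F2) fell as well, while fibrinogen, most clotting factors and the anticoagulants did not pass the test. By the brightest probe set of each gene, CDDO-Im gave no call in either genotype. Fewer hepatocytes and less RNA per hepatocyte cannot be told apart in whole liver.

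In numbers, 35 of the 38 genes were bright enough to test. The exception with a probe set was C5ar1, the receptor for the complement fragment C5a on myeloid cells, which lay between 2.52 and 2.72 on all arrays. A gene counts as called where its limma p, adjusted by Benjamini-Hochberg over 8338 genes, was under 0.05. For CKO minus WT after vehicle, 3 of 35 (8.57%) were called lower and 0 higher, where 6.51% of all tested genes were called (3.26% lower and 3.25% higher). Their median change was -0.16 against -0.01 over all tested genes, and 28 of the 35 changes were negative. The groups did not overlap for 13 of the 35, against 26.3% of all tested genes. Averaged over treatments, 6 of 35 (17.1%) were called lower and 0 higher, where 10.6% of all tested genes were called (5.47% lower and 5.09% higher). Without adjustment, 9 of the 35 had a limma p under 0.05 after vehicle and 15 averaged over treatments. The share of all tested genes at that unadjusted limit is not given here. Unadjusted counts, here and below, therefore do not show how these genes compare with the rest. After CDDO-Im alone, 0 were called by limma, 8 had an unadjusted p under 0.05, and 1.54% of all tested genes were called. In that comparison 31 of the 35 changes were negative, with a median of -0.13, and the groups did not overlap for 10 of the 35, against 22.7% of all tested genes. By the brightest probe set of each gene, every CKO liver was below every WT liver (6 against 6) for F2, Klkb1, vitronectin (Vtn), C1s1, C6 and C8b, which is 6 of 35, and 2.48% of all tested genes had that order. The reverse order was found for 0 of the 35, and for 2.39% of all tested genes.

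**Figure D1:**
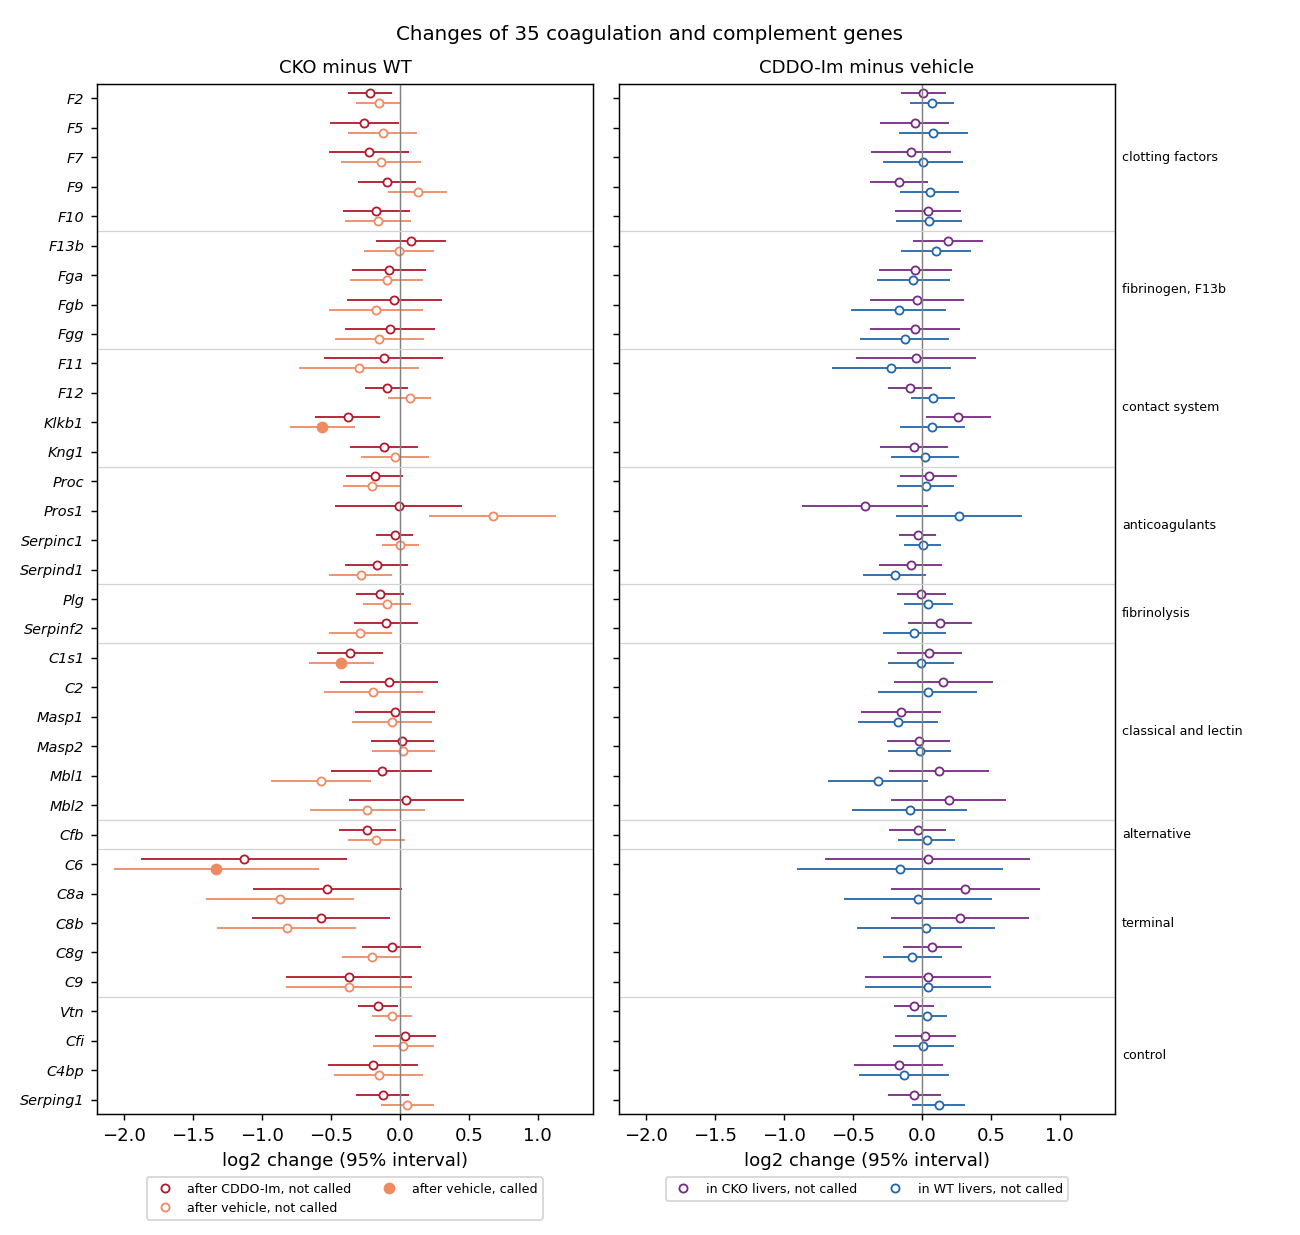
Log2 changes of the 35 tested genes (x axis, with 95% limma intervals) by gene, grouped by role (y axis), for CKO minus WT on the left and CDDO-Im minus vehicle on the right. Filled circles are called. On the left, C6, Klkb1 and C1s1 carry them, after vehicle. On the right none is filled, and every interval lies within a 2-fold change.

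The terminal components were the group furthest from 0. All 5 had negative changes in CKO livers, with a median of -0.82 after vehicle (1 called) and -0.70 averaged over treatments (3 called). Of all tested genes, 3.26% were called lower after vehicle and 5.47% averaged over treatments. C6, which joins the C5b fragment and starts the membrane attack complex, measured 10.81, 10.79 and 10.56 in CKO livers after CDDO-Im and 11.42, 9.75 and 10.87 in CKO livers after vehicle. In WT livers it measured 11.89, 11.68 and 11.99 after CDDO-Im and 12.16, 11.70 and 12.18 after vehicle. No CKO liver reached a WT liver. C6 was 2.52-fold lower in CKO livers after vehicle (log2 change -1.33 ± 0.34, SE, limma adjusted p = 0.0427) and 2.35-fold lower averaged over treatments (-1.23 ± 0.24, limma adjusted p = 0.0109). After CDDO-Im the change was -1.13 ± 0.34 (limma adjusted p = 0.129). The vehicle call of C6 ended in 10 of 12 fits that each dropped an array, all but those without CKO vehicle replicate 3 or 4 (highest limma adjusted p = 0.122, without WT vehicle replicate 1), and the averaged call in 0 of 12. Both calls ended with no filter on low signal and with the replicate block (limma adjusted p = 0.302 and 0.0828 with the block). Without CKO vehicle replicate 3, C6 changed by -1.70 after vehicle (limma adjusted p = 0.0166). The lowest liver, CKO vehicle replicate 4, widened the spread as well as the difference. Without it C6 changed by -0.86 after vehicle (limma adjusted p = 0.0359), by -1.13 after CDDO-Im (0.0243) and by -0.998 averaged over treatments (0.00307).

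C8a and C8b encode the alpha and beta chains of C8, of which the alpha chain inserts into the membrane. C8a measured 13.61, 13.18 and 12.80 in CKO livers after CDDO-Im and 13.18, 12.40 and 13.06 after vehicle. In WT livers it measured 13.85, 13.39 and 13.94 after CDDO-Im and 13.88, 13.66 and 13.72 after vehicle. The genotypes were separate after vehicle, and after CDDO-Im the highest CKO liver passed the lowest WT liver. C8b measured 12.22, 12.03 and 11.69 in CKO livers after CDDO-Im and 12.16, 11.17 and 11.78 after vehicle, against 12.48, 12.42 and 12.76 in WT livers after CDDO-Im and 12.60, 12.37 and 12.61 after vehicle. Here no CKO liver reached a WT liver. Averaged over treatments, C8a fell 1.62-fold (-0.70 ± 0.17, limma adjusted p = 0.0285) and C8b fell 1.62-fold (-0.70 ± 0.16, limma adjusted p = 0.0217). After vehicle alone both missed the threshold, at -0.87 ± 0.24 (limma adjusted p = 0.0613) for C8a and -0.82 ± 0.23 (0.0584) for C8b. Without CKO vehicle replicate 3, C8b was called after vehicle (-1.05, limma adjusted p = 0.0318). The averaged call of C8a was lost in 5 of 12 fits that each left out 1 array (highest limma adjusted p = 0.0650, without WT CDDO-Im replicate 2). That of C8b was lost in 0 of 12 (highest limma adjusted p = 0.04996, without CKO CDDO-Im replicate 4). Both averaged calls ended with no filter on low signal and with the replicate block (limma adjusted p = 0.161 for C8a and 0.139 for C8b with the block).

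C8g, the gamma chain, which is not related to the other chains, averaged 14.12 ± 0.14 in CKO livers against 14.18 ± 0.12 in WT livers after CDDO-Im. After vehicle it averaged 14.05 ± 0.12 in CKO livers against 14.25 ± 0.04 in WT livers (SD, n = 3 each). Its change averaged over treatments was -0.13 ± 0.07 (limma adjusted p = 0.245). C9, which polymerises to form the pore, measured 14.41, 14.36 and 14.05 in CKO livers after CDDO-Im and 14.59, 14.04 and 14.06 after vehicle. WT livers measured 14.89, 14.36 and 14.69 after CDDO-Im and 14.86, 14.25 and 14.69 after vehicle. The genotypes overlapped under both treatments, and the averaged change of -0.37 ± 0.15 was not called (limma adjusted p = 0.133). C5, the protein upstream of C6, is encoded by Hc, which is not among the 38 and was looked up after the others were seen. Hc averaged 13.54 ± 0.25 in CKO livers against 13.99 ± 0.17 in WT livers after CDDO-Im, and 13.63 ± 0.32 in CKO livers against 13.97 ± 0.18 in WT livers after vehicle (SD, n = 3 each). Its change averaged over treatments was -0.40 ± 0.13 (limma adjusted p = 0.0752).

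Klkb1 encodes prekallikrein, the zymogen of the protease that activates factor XII and releases bradykinin from kininogen. It measured 11.09, 11.16 and 10.80 in CKO livers after CDDO-Im and 10.62, 10.83 and 10.82 after vehicle, against 11.27, 11.41 and 11.51 in WT livers after CDDO-Im and 11.32, 11.37 and 11.28 after vehicle. All CKO livers were below all WT livers. Klkb1 fell 1.48-fold after vehicle (-0.57 ± 0.11, limma adjusted p = 0.0121) and 1.39-fold averaged over treatments (-0.47 ± 0.08, limma adjusted p = 0.00431). After CDDO-Im its change of -0.38 ± 0.11 was not called (limma adjusted p = 0.111). The call after vehicle was lost without CKO vehicle replicate 3 (limma adjusted p = 0.0526) and kept in the other 11 such fits, and the averaged call was lost in 0 of 12. Both calls ended with the replicate block (limma adjusted p = 0.204 after vehicle and 0.0699 averaged).

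The other contact system genes did not pass the test. F11, the gene of factor XI, lies next to Klkb1 with 0 protein-coding genes between them in the RefSeq annotation of GRCm38.p6. It averaged 9.60 ± 0.11 in CKO livers against 9.72 ± 0.20 in WT livers after CDDO-Im, and 9.64 ± 0.30 in CKO livers against 9.94 ± 0.36 in WT livers after vehicle (SD, n = 3 each). Its averaged change was -0.21 ± 0.14 (limma adjusted p = 0.367), and its difference from Klkb1 was not tested. The averaged changes of F12 (factor XII) and Kng1 (kininogen) were -0.01 ± 0.05 and -0.08 ± 0.08, and the probe set of Kng1 may also detect its close paralog Kng2. A dimmer probe set of Kng1 changed by -0.22 ± 0.08 averaged over treatments in a fit of every probe set (limma adjusted p = 0.112).

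C1s1 encodes the protease of the C1 complex that cleaves C4 and C2 in the classical pathway. It measured 12.63, 12.47 and 12.32 in CKO livers after CDDO-Im and 12.33, 12.39 and 12.53 after vehicle. In WT livers it measured 12.93, 12.80 and 12.78 after CDDO-Im and 13.004, 12.839 and 12.692 after vehicle. No CKO liver reached a WT liver. C1s1 was 1.34-fold lower after vehicle (-0.43 ± 0.11, limma adjusted p = 0.0419) and 1.31-fold lower averaged over treatments (-0.39 ± 0.08, limma adjusted p = 0.0107). Its probe set may also detect related transcripts, a class that the array's design marks. The vehicle call did not survive in 9 of 12 fits that each dropped an array (highest limma adjusted p = 0.139, without CKO vehicle replicate 3). It also ended with median centring (limma adjusted p = 0.0576), with no filter on low signal and with the replicate block (0.243). The averaged call was lost in 0 of 12 such fits and in 0 of 8 other settings.

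The promoters of 5 genes that fell are shown with that of Fga, a fibrinogen gene that did not. Fga matched more of the motifs searched than any other of these genes, so it does not stand for the uncalled genes. A second window of C1s1 (chr6:124542272-124542571) and the window of F2, which also fell, held no match and are not shown. Each line is 300 bases from RefSeq on GRCm38.p6, running 5′ to 3′ on the gene's strand from 250 bases before its start to 50 after. Capitals mark the motifs searched on both strands.
C6 promoter, chr15:4726960-4727259, plus strand, no match: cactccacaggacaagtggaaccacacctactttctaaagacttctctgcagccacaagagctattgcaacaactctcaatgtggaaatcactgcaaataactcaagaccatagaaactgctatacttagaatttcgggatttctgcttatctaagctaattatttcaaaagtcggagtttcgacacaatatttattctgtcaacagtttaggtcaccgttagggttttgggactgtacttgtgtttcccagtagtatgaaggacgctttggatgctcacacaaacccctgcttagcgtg
C8a promoter, chr4:104876349-104876648, minus strand, STAT motif in capitals: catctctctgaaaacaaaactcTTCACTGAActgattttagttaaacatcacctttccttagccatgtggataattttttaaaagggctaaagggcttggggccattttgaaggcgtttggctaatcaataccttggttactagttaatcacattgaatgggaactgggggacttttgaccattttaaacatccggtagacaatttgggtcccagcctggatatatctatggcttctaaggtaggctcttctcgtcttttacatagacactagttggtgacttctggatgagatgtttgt
C8b promoter, chr4:104766067-104766366, plus strand, no match: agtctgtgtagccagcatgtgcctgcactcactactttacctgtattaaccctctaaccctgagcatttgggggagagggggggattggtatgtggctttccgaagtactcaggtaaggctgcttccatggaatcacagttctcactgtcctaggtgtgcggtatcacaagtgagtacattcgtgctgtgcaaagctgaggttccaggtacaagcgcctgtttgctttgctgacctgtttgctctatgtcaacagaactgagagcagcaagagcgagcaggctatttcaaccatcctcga
Klkb1 promoter, chr8:45294786-45295085, minus strand, C/EBP motif and then the antioxidant response element core in capitals: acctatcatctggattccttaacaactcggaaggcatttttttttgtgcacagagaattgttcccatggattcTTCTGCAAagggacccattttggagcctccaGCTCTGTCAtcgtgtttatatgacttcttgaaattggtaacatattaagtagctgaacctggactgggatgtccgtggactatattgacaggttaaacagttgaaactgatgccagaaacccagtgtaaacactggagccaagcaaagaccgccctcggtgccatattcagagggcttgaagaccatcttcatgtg
C1s1 promoter, chr6:124542310-124542609, minus strand, C/EBP motif in capitals: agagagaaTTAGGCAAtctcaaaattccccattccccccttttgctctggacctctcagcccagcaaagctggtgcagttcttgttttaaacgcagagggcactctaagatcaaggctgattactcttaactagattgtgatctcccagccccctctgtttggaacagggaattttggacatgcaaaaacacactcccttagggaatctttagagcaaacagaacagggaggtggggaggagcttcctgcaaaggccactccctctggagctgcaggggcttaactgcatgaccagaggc
Fga promoter, chr3:83025903-83026202, plus strand, STAT, C/EBP and HNF1 motifs in capitals, in that order: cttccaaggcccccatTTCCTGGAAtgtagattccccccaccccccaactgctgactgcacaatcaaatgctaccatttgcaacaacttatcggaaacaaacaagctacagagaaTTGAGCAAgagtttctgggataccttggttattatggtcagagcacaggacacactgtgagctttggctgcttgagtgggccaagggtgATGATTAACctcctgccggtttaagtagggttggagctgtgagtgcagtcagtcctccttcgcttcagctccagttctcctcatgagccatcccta

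The motifs searched were the antioxidant response element core bound by Nrf2 (TGACNNNGC), C/EBP (TTGCNNAA), HNF1 (GTTAATNAT), STAT (TTCNNNGAA) and HNF4 (CAAAGTCCA), and no matches overlapped in these lines. RefSeq windows were matched for 30 of the 38 genes, 32 windows in all, because some genes have more than 1 start. The response element core was in 3 of the 32 windows (9.38%), those of Klkb1, Mbl1 and Serpind1, against 12.4% of all 32851 windows. The C/EBP motif was in 10 (31.2%, against 10.8% of all), the STAT motif in 7 (21.9%, against 8.3%) and the HNF1 motif in 3 (9.38%, against 0.801%). The HNF4 motif was in 0 of 32, against 0.475% of all. Of the genes that were not called, Vtn, Pros1 and Masp2 had only the STAT motif, and C9 and F11 only that of C/EBP. A match describes letters only and does not show that a factor binds, and the absence of a match says only that these letters are not in the window. C8a and C8b lie side by side on chromosome 4 with 0 protein-coding genes between them, and their windows shared none of the motifs searched.

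**Figure D2:**
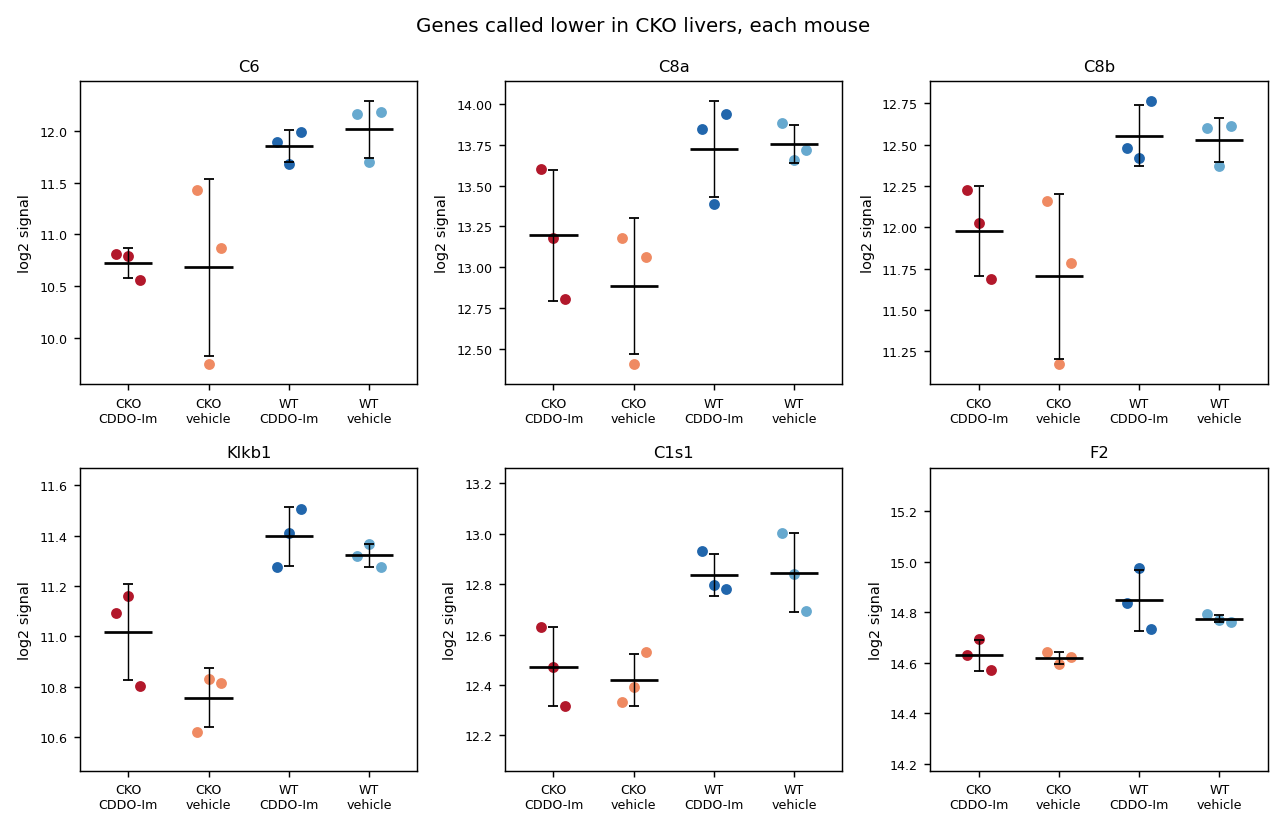
Log2 signal (y axis) of the 6 genes called lower in CKO livers averaged over treatments, for each mouse by group (x axis), with the group mean and SD (n = 3). C6, C8b, Klkb1, C1s1 and F2 have every CKO liver below every WT liver, while C8a overlaps after CDDO-Im. CKO vehicle replicate 4 is lowest for C6, C8a and C8b.

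Among the clotting factors, prothrombin was the gene that passed the test. F2 encodes prothrombin, the precursor of thrombin. It measured 14.63, 14.69 and 14.57 in CKO livers after CDDO-Im and 14.64, 14.59 and 14.62 after vehicle. WT livers measured 14.84, 14.97 and 14.73 after CDDO-Im and 14.79, 14.77 and 14.76 after vehicle. The genotypes did not overlap, but the change was small, 1.14-fold lower averaged over treatments (-0.19 ± 0.05, limma adjusted p = 0.0462). It lost this call in 11 of 12 fits that each dropped an array (highest limma adjusted p = 0.0941, without CKO CDDO-Im replicate 4) and was kept without WT CDDO-Im replicate 4. Quantile normalization, median centring, no filter on low signal, every probe set tested and the replicate block each ended it too (limma adjusted p of 0.0722, 0.0768, 0.0523, 0.0526 and 0.180).

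F5, the cofactor of the protease that makes thrombin, had an averaged change of -0.19 ± 0.08 (limma adjusted p = 0.153). F7, which starts clotting with tissue factor, and F10, the protease that cleaves prothrombin, had averaged changes of -0.18 ± 0.09 (limma adjusted p = 0.235) and -0.17 ± 0.08 (0.194). The dimmer probe sets of F10 changed by 0.01 ± 0.08 and -0.03 ± 0.10 in a fit of every probe set. F9, the gene mutated in human haemophilia B, stood at 0.02 ± 0.07. Its levels were 13.18 ± 0.17 in CKO livers and 13.27 ± 0.10 in WT livers after CDDO-Im, and 13.34 ± 0.09 in CKO livers and 13.22 ± 0.04 in WT livers after vehicle (SD, n = 3 each).

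The fibrinogen chains gave no call. Fga, Fgb and Fgg encode the alpha, beta and gamma chains and form a cluster on chromosome 3 with 0 protein-coding genes between neighbours. Fgb measured 15.24, 14.67 and 14.63 in CKO livers after CDDO-Im and 15.04, 14.72 and 14.89 after vehicle. In WT livers it measured 14.97, 14.89 and 14.80 after CDDO-Im and 15.18, 14.97 and 15.01 after vehicle. The genotypes overlapped under both treatments. Averaged changes of CKO against WT were -0.09 ± 0.08 for Fga, -0.11 ± 0.11 for Fgb and -0.11 ± 0.10 for Fgg, with limma adjusted p of 0.546, 0.566 and 0.527. All 3 chains had their highest value in the same liver, CKO CDDO-Im replicate 2, which also had the second highest acute phase mean (12.67). CKO vehicle replicate 3, with the highest acute phase mean (13.34), was below WT vehicle replicate 1 (mean 11.94) for all 3 chains. A link between the chains and the acute phase genes was not tested. F13b, the carrier subunit of the factor that crosslinks fibrin, had an averaged change of 0.04 ± 0.08.

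The anticoagulants also gave no call, and averaged over treatments Pros1 was the 1 with a positive change. Pros1 encodes protein S, the cofactor of activated protein C. It measured 9.24, 9.23 and 9.00 in CKO livers after CDDO-Im and 9.87, 9.01 and 9.82 after vehicle, against 8.96, 9.15 and 9.39 in WT livers after CDDO-Im and 8.97, 8.78 and 8.94 after vehicle. Replicates 3 and 5 of the CKO vehicle group were above all other livers, and replicate 4 was close to the WT vehicle livers. The change after vehicle was 0.67 ± 0.21 (limma adjusted p = 0.0835). Without replicate 4 it was 0.95 after vehicle (limma adjusted p = 0.00564) and 0.47 averaged over treatments (0.0153), and Pros1 was then called higher. After CDDO-Im the genotypes differed by -0.01 ± 0.21, and the interaction of genotype and compound was -0.68 ± 0.29 (unadjusted p = 0.0414, limma adjusted p = 0.467). Antithrombin (Serpinc1), the main inhibitor of thrombin, was among the steadiest of the 35, with a residual SD of 0.0393 and an averaged change of -0.02 ± 0.04. Serpind1 (heparin cofactor II) and Proc (protein C) had averaged changes of -0.23 ± 0.07 and -0.19 ± 0.07 that missed the threshold (limma adjusted p = 0.0762 and 0.0896). Averaged over treatments, Serpind1 was called lower without WT CDDO-Im replicate 4 (-0.28, limma adjusted p = 0.0187). Proc was called lower without WT vehicle replicate 3 (-0.23, limma adjusted p = 0.0464).

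In fibrinolysis, Plg (plasminogen) and Serpinf2 (the main plasmin inhibitor) had averaged changes of -0.12 ± 0.06 and -0.20 ± 0.07, and neither was called (limma adjusted p = 0.205 and 0.119).

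The lectin pathway gave 1 near miss. Mbl1 encodes a mannose-binding lectin that recognises microbial sugars. It measured 12.58, 12.37 and 12.06 in CKO livers after CDDO-Im and 12.52, 12.13 and 11.98 after vehicle, against 12.28, 12.59 and 12.53 in WT livers after CDDO-Im and 12.79, 12.89 and 12.68 after vehicle. The genotypes were separate after vehicle and overlapped after CDDO-Im. The change after vehicle was -0.58 ± 0.16 (limma adjusted p = 0.0661), and without CKO vehicle replicate 3 Mbl1 was called after vehicle (-0.73, limma adjusted p = 0.0410) and averaged over treatments (-0.43, 0.0407). The related lectin Mbl2 averaged -0.10 ± 0.13, and the protease Masp2 averaged 0.02 ± 0.07. A dimmer probe set of Masp2 averaged -0.14 ± 0.09 in a fit of every probe set (limma adjusted p = 0.329). C2, which gives the classical and lectin C3 convertase its protease, averaged -0.14 ± 0.11, from a probe set that may also detect other transcripts.

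**Figure D3:**
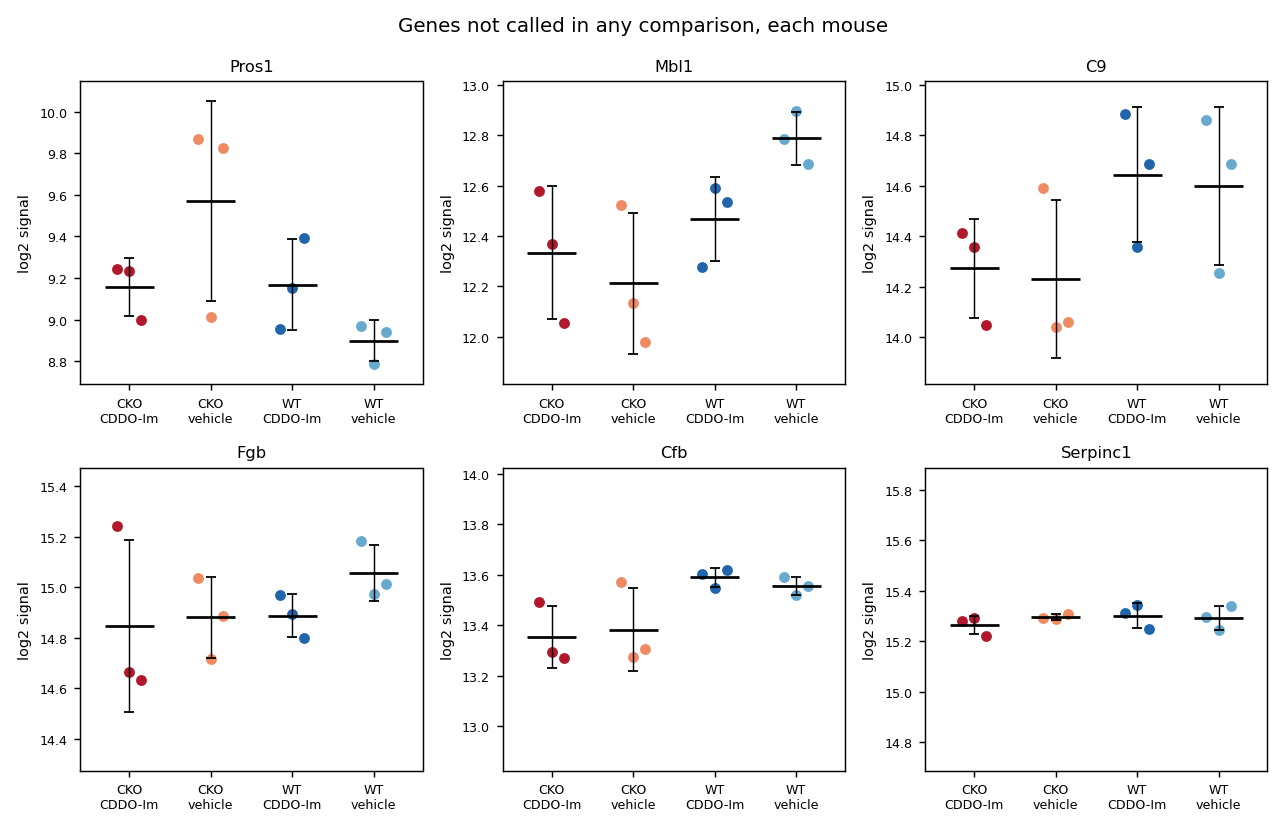
Log2 signal (y axis) for each mouse by group (x axis), with the group mean and SD (n = 3), of 6 genes that were not called. Pros1 is high in 2 of 3 CKO vehicle livers, Mbl1 is separate between genotypes after vehicle only, and Serpinc1 is nearly flat.

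Masp1 encodes lectin pathway proteases and a shorter product by alternative splicing, and its probe sets disagreed. The brightest averaged 11.20 ± 0.19 in CKO livers against 11.24 ± 0.17 in WT livers after CDDO-Im, and 11.36 ± 0.17 in CKO livers against 11.41 ± 0.12 in WT livers after vehicle (SD, n = 3 each). It was not called in any comparison. A second probe set measured 8.02, 8.01 and 8.10 in CKO livers after vehicle and 8.41, 8.37 and 8.60 in WT livers after vehicle. In a fit of every probe set it was lower in CKO livers after vehicle (-0.41 ± 0.10, limma adjusted p = 0.0342), where the third changed by 0.10 ± 0.14 (0.713). The third was lower with CDDO-Im averaged over genotypes (-0.44 ± 0.10, limma adjusted p = 0.0490). The dimmer ones may also detect related transcripts, the part of the gene that each reads is not annotated in the tables used, and the other 2 probe sets of Masp1 lay at background.

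**Figure D4:**
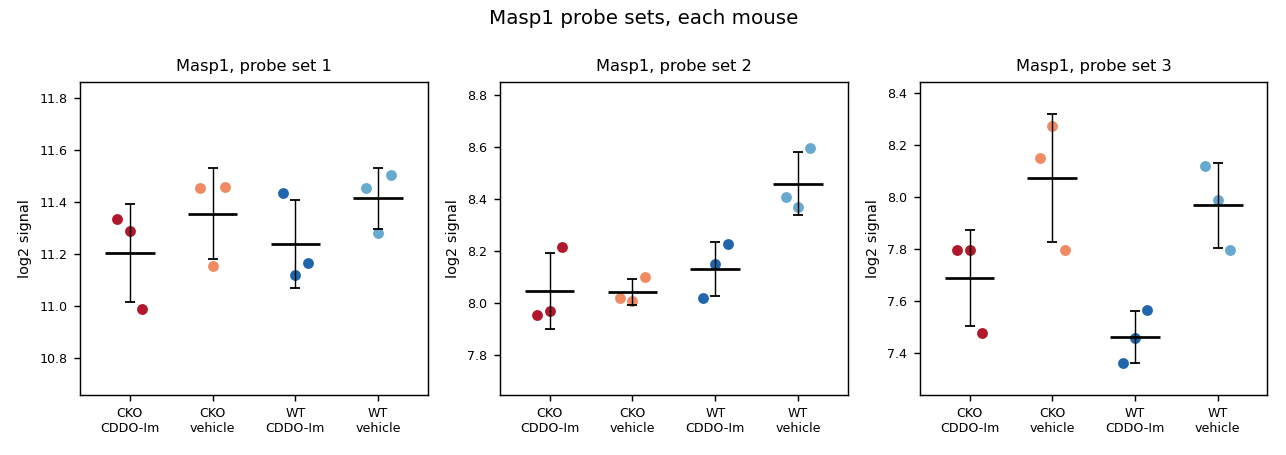
Log2 signal (y axis) of the 3 Masp1 probe sets above background, brightest first, for each mouse by group (x axis), with the group mean and SD (n = 3). The brightest shows no separation, the second is highest in the WT vehicle group, and the third is lowest in the WT CDDO-Im group.

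Among the remaining complement genes, Cfb (factor B), the protease of the alternative pathway convertase, measured 13.49, 13.29 and 13.27 in CKO livers after CDDO-Im and 13.57, 13.27 and 13.31 after vehicle. WT livers measured 13.60, 13.55 and 13.62 after CDDO-Im and 13.59, 13.52 and 13.56 after vehicle. The genotypes were separate after CDDO-Im and overlapped after vehicle through CKO vehicle replicate 3, the liver with the highest acute phase signal. The averaged change of -0.20 ± 0.07 was not called (limma adjusted p = 0.0762), and it was called without that liver. Of the inhibitors, vitronectin (Vtn), which blocks membrane insertion, was low in all CKO livers by its brightest probe set, but by little. It averaged 15.72 ± 0.08 in CKO livers against 15.88 ± 0.05 in WT livers after CDDO-Im, and 15.78 ± 0.04 in CKO livers against 15.84 ± 0.01 in WT livers after vehicle (SD, n = 3 each). Its averaged change was -0.11 ± 0.05 (limma adjusted p = 0.156). A second probe set of Vtn overlapped after vehicle, at 15.26, 14.97 and 15.09 in CKO livers against 15.27, 15.18 and 15.36 in WT livers. Its averaged change in a fit of every probe set was -0.20 ± 0.07 (limma adjusted p = 0.0822). C4bp (C4b-binding protein), Cfi (factor I, which cleaves C3b) and Serping1 (C1 inhibitor) had averaged changes of -0.18 ± 0.10, 0.03 ± 0.07 and -0.04 ± 0.06, all uncalled.

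By the brightest probe set of each gene, CDDO-Im left these transcripts within narrow bounds. In WT livers 0 of 35 were called by limma and 0 had an unadjusted p under 0.05, where 3.65% of all tested genes were called. Changes ran from -0.32 (Mbl1) to 0.27 (Pros1), with a median of 0.01, and the groups did not overlap for 3 of the 35, against 23.3% of all tested genes. In CKO livers 0 of 35 were called, as were 0% of all tested genes, and the groups did not overlap for 0 of the 35, against 14.6% of all tested genes. By limma, 1 gene had an unadjusted p under 0.05. That was Klkb1, at 11.02 ± 0.19 after CDDO-Im and 10.76 ± 0.12 after vehicle (SD, n = 3 each), a change of 0.26 ± 0.11. Its limma adjusted p was 0.515. The 95% intervals lay within a 1.5-fold change for 31 genes in WT livers and 30 in CKO livers, and within 2-fold for all 35 in each. Averaged over genotypes, 0 were called against 2.46% of all tested genes, 1 had an unadjusted p under 0.05, and all 35 intervals lay within 1.5-fold, the widest being that of C6 (-0.58 to 0.47). The interaction of genotype and CDDO-Im was called for 0 of the 35 and for 0.276% of all tested genes, and 1 of the 35, Pros1, had an unadjusted p under 0.05. The third probe set of Masp1 changed more with CDDO-Im in a fit of every probe set. Its change was -0.51 ± 0.14 in WT livers (limma adjusted p = 0.0814) and -0.38 ± 0.14 in CKO livers (0.529). Averaged over genotypes it was called (-0.44 ± 0.10, limma adjusted p = 0.0490).

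Other genes of the same systems, on lists that hold none of the 38, were mostly uncalled. Of 34 further coagulation and fibrinolysis genes 21 were tested, and after vehicle 0 were called by limma in CKO livers. F2r, the thrombin receptor, rose in CKO livers averaged over treatments by 0.42 ± 0.08 (limma adjusted p = 0.0110). It averaged 11.64 ± 0.12 in CKO livers against 11.03 ± 0.21 in WT livers after CDDO-Im, and 11.51 ± 0.13 in CKO livers against 11.27 ± 0.07 in WT livers after vehicle (SD, n = 3 each). Of 33 further complement genes 17 were tested, with 1 called higher and 0 lower. This was Cd55, a membrane inhibitor of the C3 convertase, at 5.33 ± 0.16 in CKO livers against 4.81 ± 0.18 in WT livers after vehicle (0.52 ± 0.11, limma adjusted p = 0.0256). Leaving out 1 array at a time ended this call in 4 of 12 fits (highest limma adjusted p = 0.0692, without CKO vehicle replicate 4). The call of Cd55 also ended with no filter on low signal and with the replicate block, and the block ended the averaged call of F2r.

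Of 22 regulators of hepatocyte plasma protein genes 20 were tested. After vehicle, Cebpd, a C/EBP factor of the acute phase response, rose in CKO livers by 1.65 ± 0.30 (limma adjusted p = 0.0101). Foxa3, a liver forkhead factor, fell by 1.01 on the log2 scale (SE 0.20, limma adjusted p = 0.0151), and Il6st, the signalling receptor of interleukin-6, fell by 0.57 (SE 0.14, 0.0342). In WT livers CDDO-Im raised Cebpd by 1.71 ± 0.30 (limma adjusted p = 0.0134) and Cebpb by 1.04 ± 0.23 (0.0370), and lowered Foxa3 to 9.73 ± 0.39, against 10.61 ± 0.24 after vehicle (-0.88 ± 0.20, 0.0397). Nr2f2, a nuclear receptor of liver, averaged 8.11 ± 0.23 after CDDO-Im against 8.78 ± 0.07 after vehicle in those livers (-0.67 ± 0.12, limma adjusted p = 0.0170). Dropping 1 array at a time ended the call of Il6st after vehicle in 6 of 12 fits, and in WT livers those of Cebpb in 8 and Foxa3 in 9, with limma adjusted p of up to 0.104 (without CKO vehicle replicate 5), 0.128 (without WT CDDO-Im replicate 4) and 0.108 (without WT vehicle replicate 3). It also ended the call of Foxa3 after vehicle in 1 fit (0.0541, without CKO vehicle replicate 5), and in WT livers that of Nr2f2 in 2 (up to 0.0577) and that of Cebpd in 1 (0.0598), both values being without WT CDDO-Im replicate 4. With no filter on low signal every call named in this paragraph ended. With the replicate block all of them but that of Cebpb ended, and the mean of probe sets also ended that of Il6st.

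Lists of other liver genes were examined beside the terminal components. Of 12 male-biased liver genes 8 were tested, and 4 fell in CKO livers after vehicle (3.26% of all tested genes did) and 5 averaged over treatments (5.47% did). The changes of Cyp7b1 and Cyp2d9, also on this list, were 0.49 ± 0.28 and 0.05 ± 0.10 after vehicle, and neither was called. Hsd3b5, a male-biased steroid dehydrogenase, changed by -4.71 ± 0.89 after vehicle (limma adjusted p = 0.0121). This call ended with no filter on low signal and with the replicate block. The mean of the 8 ran from 11.44 to 12.15 in CKO livers after CDDO-Im, 10.82 to 11.88 in CKO livers after vehicle, 12.21 to 12.77 in WT livers after CDDO-Im and 12.92 to 13.12 in WT livers after vehicle. In CKO vehicle replicate 4, where C6, C8a and C8b were lowest, this mean was lowest and the female-biased Cyp2b9 reached 11.83, against 2.32 to 7.09 in the other livers. Of 12 female-biased genes 7 had a probe set, and Cyp2b9 was the 1 tested and was not called. Among the untested ones, Cyp2b13 (3.37) and Cux2 (4.87) were also highest in that liver. Cyp3a44 (2.78), Cyp3a16, Sult3a1 and Hao2 (each 2.22) were not raised in it. Of 22 acute phase genes 20 were tested, and after vehicle 1 was called higher in CKO livers, Orm3 (2.49 ± 0.42, limma adjusted p = 0.00776), an acid glycoprotein gene, where 3.25% of all tested genes were called higher. Saa2, a serum amyloid gene, measured 12.86, 9.80 and 9.49 in CKO livers after CDDO-Im and 15.90, 10.63 and 11.67 after vehicle, against 10.78, 9.88 and 12.85 in WT livers after CDDO-Im and 11.06, 8.18 and 9.31 after vehicle. It varied widely within every group. The part of these genes in the fall of the complement genes was not tested. Hepatocyte markers averaged 15.66 to 15.71 in CKO livers against 15.74 to 15.76 in WT livers after CDDO-Im, and 15.70 to 15.78 in CKO livers against 15.67 to 15.71 in WT livers after vehicle. Of these 9 markers 1 was called higher in CKO livers after vehicle, Tdo2, a tryptophan-degrading enzyme, at 15.09 ± 0.08 against 14.74 ± 0.02 in WT livers (0.34 ± 0.07, limma adjusted p = 0.0182). Of the markers of other liver cells, Kupffer cells had 1 of 7 tested called higher in CKO livers after vehicle (Marco, 2.304 ± 0.456, limma adjusted p = 0.0151), endothelial cells 1 of 7 (Lyve1, 2.24 ± 0.46, 0.0176) and stellate cells 1 of 6 called lower (Reln, -0.51 ± 0.12, 0.0348). Of all tested genes, 3.25% were called higher and 3.26% lower. Median changes of the tested markers were 0.25 for Kupffer cells, -0.04 for endothelial cells and -0.24 for stellate cells, so the called markers do not stand for their lists. Dropping 1 array ended the call of Marco in 1 of 12 fits, of Lyve1 in 3, of Tdo2 in 3 and of Reln in 6. The highest limma adjusted p was 0.0658 for Marco and 0.126 for Reln, both without CKO vehicle replicate 3. It was 0.0629 for Lyve1 and 0.0625 for Tdo2, both without WT vehicle replicate 1. No filter on low signal also ended the calls of Marco, Lyve1 and Reln, and the replicate block those of Lyve1, Tdo2 and Reln. Median centring and the mean of probe sets each ended that of Reln too. The part of these cells in the results was not tested.

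**Figure D5:**
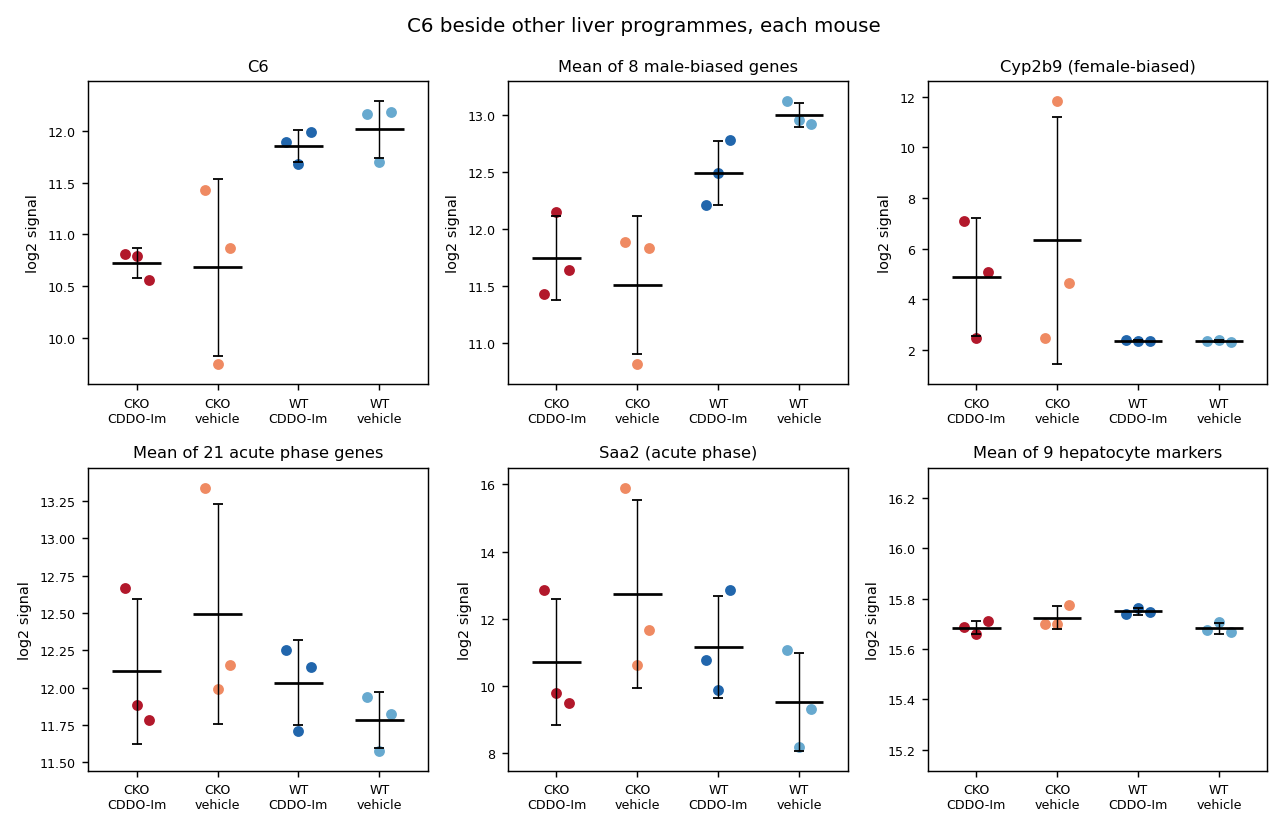
Log2 signal (y axis) for each mouse by group (x axis), with the group mean and SD (n = 3), of C6 beside the mean of 8 male-biased genes, Cyp2b9, the mean of 21 acute phase genes, Saa2 and the mean of 9 hepatocyte markers. CKO vehicle replicate 4 is lowest for C6 and for the male-biased mean and highest for Cyp2b9, CKO vehicle replicate 3 is highest in both acute phase panels, and the hepatocyte marker mean lies between 15.66 and 15.78 in every liver.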

How the data were processed

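Liver RNA of 12 mice was hybridised to 1 Affymetrix array each, per the labels. The submitters' processing notes name GCRMA 2.12.1 and R 2.7.0 for the log2 values deposited by the authors. GCRMA corrects background by probe sequence, normalizes arrays and summarises probe sets. The sources used here do not give its settings. Array medians were 2.32 to 2.34, and 16494 to 16776 probe sets per array lay at the floor (within 1e-06). The number of arrays limits the precision, and the labels name no batch.

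Probe sets were named through the platform annotation (34945 name 1 gene, 932 several, 9160 none, and 64 are controls). Entrez identifiers of 34741 matched RefSeq GRCm38.p6, which changed 0 symbols. The brightest probe set stood for each gene, and genes over log2 5 on at least 3 arrays were tested.

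A model of 4 group means over all 12 arrays was fitted with limma 3.58.1 in R 4.3.3 (8 residual and 2.32 prior degrees of freedom), so all groups share 1 spread. P-values are two-sided and Benjamini-Hochberg adjusted over 8338 genes. Comparisons that share a group are not independent of each other. The fit was tested on simulated data. Alternatives were quantile normalization, median centring, no or a stricter filter (log2 6), every probe set, mean of probe sets, replicate block, trended robust eBayes and leaving out each array.

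The 38 genes, the other lists and the tests were chosen with earlier results of these data known. Of the 38, every called gene is named, as are the others by role. From other lists, called genes with the largest changes and fixed checks are named. Hc was added after its values were seen.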

Additional observations from a re-analysis of the deposited data

How the results depend on the processing

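After vehicle, 3 of the 35 genes were called for Keap1 deletion. The count was 1 with no filter on low signal, where more genes are tested, and 5 with trended robust eBayes, which added C8a and C8b. Leaving out 1 array gave 1 to 3, with 1 without CKO vehicle replicate 5, CKO CDDO-Im replicate 3, WT CDDO-Im replicate 2, 3 or 4, or WT vehicle replicate 1 or 2. Averaged over treatments, the count of 6 became 2 with no filter and ran from 4 to 7 without 1 array. For Keap1 deletion under CDDO-Im it was 0 to 1 without 1 array, the 1 being C6 without CKO vehicle replicate 4. For CDDO-Im in WT livers the mean of a gene's probe sets gave 1 call, Masp1 (-0.26, limma adjusted p = 0.0467). No called gene changed sign in any alternative run.

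Replicate numbers recur across groups, and nothing in the labels says that they mark a shared litter or day. Over 12 pairs of arrays with the same number, deviations from group means correlated at -0.17 to 0.15, so the numbers were not taken to pair the mice. In the CDDO-Im groups, 6 of 6 arrays correlated best with their own number (0.08 to 0.15), a hint from the data and not from the design. With the replicate block the count after vehicle was 0 of 35 (3 without it) and the averaged count was 1, C1s1 (-0.33, limma adjusted p = 0.0474), against 6 without it.

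Scaling moved the split of all called genes. For CDDO-Im in WT livers, 157 higher and 147 lower became 228 and 121 with median centring, and averaged over genotypes 100 and 105 became 166 and 88, or 123 and 89 with quantile normalization. The median change moved by 0.04 or less, and among the 35 genes median centring ended the vehicle call of C1s1 (3 calls became 2), while median centring and quantile normalization each ended the averaged call of F2 (6 became 5).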
